A study of Mus musculus with 18 samples.

Results

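The comparison described here is between spleens of mice dosed directly with AOS and spleens of mice given a control faecal transplant, all on a high fat diet. AOS is read here as alginate oligosaccharide, short sugar chains cut from brown algal alginate, and FMT as faecal microbiota transplantation. Both groups were ICR mice, an outbred stock, aged 10 weeks and kept on a high fat diet (HFD). The group called HFD+AOS was labelled with AOS at 10 mg/kg and with no transplant, and the group called HFD+control-FMT with a control transplant and no AOS. Each had 3 libraries of whole-spleen RNA, out of 18 libraries in 6 groups. The other groups, also aged 10 weeks, were control, AOS, HFD alone and HFD with a transplant labelled AOS-FMT. The AOS and AOS-FMT groups carried the label of 10 mg/kg too. HFD+AOS and HFD+control-FMT differ both in dosing and in transplant, so what belongs to AOS and what to the transplant cannot be told apart here. The labels state no sex, donor, route or length of feeding, and nothing in them ties a library to an animal, cage or day, so p-values measure the spread between these samples only.

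The members were all gene rows with a mean of at least 1 FPKM (a read-pair level scaled to transcript length and library size) in either group, which kept 12655 of 19326 rows. Some genes known from spleen were members, with values below: the red pulp macrophage factor *Spic*, the marginal zone lectin *Cd209b*, the white pulp chemokine *Ccl21a* and the B cell receptor component *Cd79a*. Membership asks only for that mean and does not identify the tissue. All 15 listed exocrine pancreas genes were members too. Read depth is unknown, because the table holds no counts. Between 12241 and 12533 genes reached 1 FPKM in each of the 6 libraries.

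The spleen filters blood through macrophage-rich red pulp, where old red cells are taken apart for their iron, and holds lymphocytes in white pulp, where T cells, B cell follicles and germinal centres lie. Interferons of type I, released on sensing of viral or microbial nucleic acid, switch on antiviral genes in most cells. Heat shock proteins are chaperones that fold and refold other proteins, and Hsf1 drives many of them when proteins unfold. Natural killer (NK) cells are innate lymphocytes that kill target cells with granzymes and perforin and read them through lectin-like receptors.

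No gene passed the test between the groups. With limma on log2(FPKM + 1) in 1 fit to all 18 libraries, 0 of 12969 genes tested (0%) had a Benjamini-Hochberg adjusted p under 0.05, and the lowest was 0.134. At an unadjusted p under 0.05 there were 1484 genes (11.4%), of which 638 (4.92%) were higher in HFD+AOS and 846 (6.52%) lower. The values of the 3 libraries of one group lay wholly above or below those of the other for 1951 members (15.4%), 807 (6.38%) higher and 1144 (9.04%) lower in HFD+AOS. The median difference over the members was −0.02 on the log2 scale (interquartile range −0.12 to 0.088); 83 members were higher by 1 or more and 21 lower by 1 or more.

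Libraries with the same replicate number deviated together in the 2 groups (r = 0.62, 0.54 and 0.22 across genes for numbers 1, 2 and 3), though number 3 of HFD+AOS also went with number 2 of HFD+control-FMT (r = 0.22). What a number stands for is not given in the labels. With the number as a block, a limma fit to the 6 libraries of these groups (2 residual degrees of freedom) called 144 of 12655 genes (1.14%), 79 (0.624%) higher and 65 (0.514%) lower in HFD+AOS, with a lowest adjusted p of 0.000391. The groups did not overlap for 125 of these 144. With the block in all 18 libraries 0 were called (lowest adjusted p 0.0567). Because the block changes the calls, its adjusted p is given below as the blocked p. The adjusted p of the 18-library fit, which is above 0.05 for every gene, is given for some. Each ± beside a log2 difference is the standard error (SE) of the 18-library fit, also where a blocked p follows it. A gene given no blocked p was not called in that fit, unless it is said to be. Leaving out a library can only keep or raise a count without overlap, for any set of genes. The share of all members without overlap is given for the 6 libraries together only, and not with 1 left out.

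**Figure D1:**
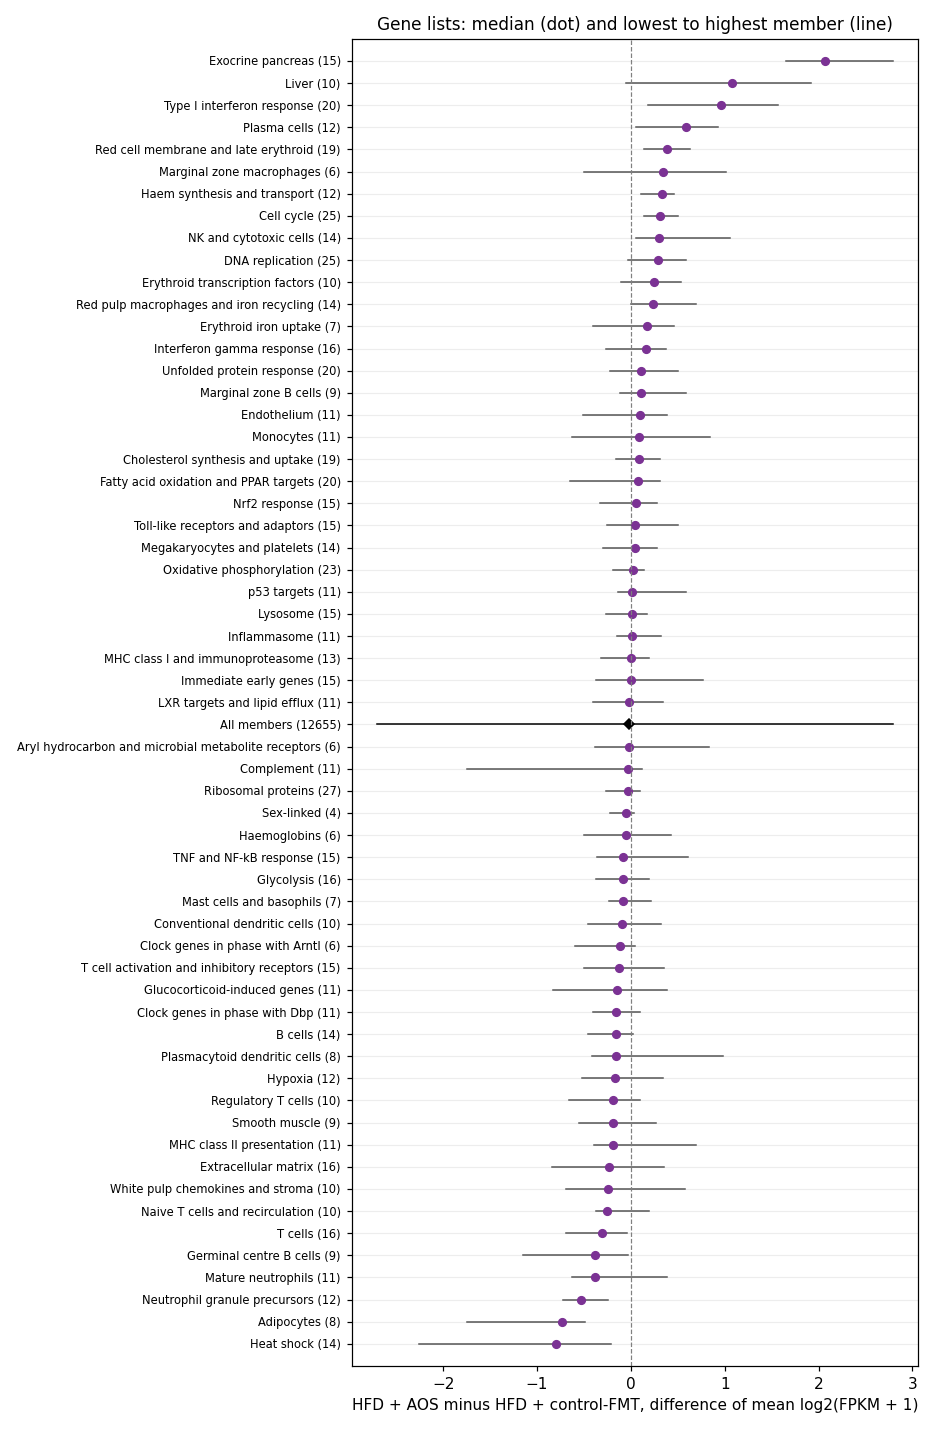
Difference between HFD+AOS and HFD+control-FMT (mean log2(FPKM + 1), horizontal axis) for 58 gene lists and for all members. Each dot or diamond is the median over a list's members, each line runs from its lowest to its highest member, and the number of members is in brackets. Type I interferon genes lie wholly above 0 (0.18 to 1.56) and heat shock genes wholly below 0 (−2.25 to −0.21), while all members have a median of −0.02.

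Genes of the type I interferon response were higher in HFD+AOS. All 20 members of this list had higher means in HFD+AOS, by a median of 0.96 on the log2(FPKM + 1) scale against −0.02 for all members. The groups did not overlap for 18 of the 20 (*Zbp1* and *Bst2* overlapped), beside 6.38% of all members higher without overlap. At an unadjusted p under 0.05 there were 14, and 0 passed in the 18-library fit. In the blocked fit 11 were called higher, beside 0.624% of all members. Leaving out any 1 of the 6 libraries left 18 to 20 without overlap and a median between 0.69 (without HFD+AOS 1) and 1.13 (without HFD+AOS 2).

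Several of these genes hold the letters of the interferon-stimulated response element close to their start. Its core, GAAA and again GAAA after any 2 bases, searched on both strands of the 250 bases before each start with overlapping matches counted, was present for 8 of the 16 list members matched to RefSeq promoters (50%) and for 936 of all 27025 genes in that table (3.46%). A match is a description of the letters and no evidence of binding. The windows below, 60 bases each from RefSeq on GRCm38.p6 (mm10), 5′ to 3′ on the gene's strand, are shown because they sit before 4 genes whose values are given next; capitals mark the matches, which read TTTC first where the element lies on the other strand.
*Ifit1*, chr19:34640779-34640838 (+): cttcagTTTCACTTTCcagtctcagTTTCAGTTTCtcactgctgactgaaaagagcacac
*Ifit3*, chr19:34583382-34583441 (+): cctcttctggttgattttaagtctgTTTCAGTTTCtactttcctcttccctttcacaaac
*Isg15*, chr4:156200850-156200909 (−): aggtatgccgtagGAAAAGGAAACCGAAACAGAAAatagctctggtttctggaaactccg
*Oas1a*, chr5:120907526-120907585 (−): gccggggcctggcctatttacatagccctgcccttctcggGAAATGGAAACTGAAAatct

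Among sensors and signalling members, *Irf7*, the transcription factor that amplifies interferon production, was at 215, 95.7 and 108 FPKM in HFD+AOS replicates 1, 2 and 3 and at 55.5, 44.4 and 41.1 in those of HFD+control-FMT. Its difference was 1.47 ± 0.48 (SE of the 18-library fit) on the log2 scale, with an adjusted p of 0.332. The blocked p was 0.0328, from a fit with its own SE of 0.17. HFD+AOS replicate 1 was the highest library and the 3 of this group lay above every HFD+control-FMT library. *Ifih1*, which encodes the double-stranded RNA sensor MDA5, was at 14.7, 10.9 and 10.9 against 7.65, 6.02 and 7.28 FPKM, a difference of 0.72 ± 0.26 (adjusted p 0.351, blocked p 0.0104). *Zbp1*, a sensor of nucleic acids in Z form that can trigger cell death, was at 66.3, 52.4 and 46.9 against 48.3, 33.04 and 27.4 FPKM (difference 0.62 ± 0.27, adjusted p 0.408, blocked p 0.0109), and HFD+control-FMT replicate 1 overlapped the HFD+AOS group. *Stat2* itself, part of the factor that binds the response element, was at 31.8, 33.5 and 38.3 against 30.7, 30.4 and 29.4 FPKM, the smallest difference in the list (0.18 ± 0.16), with no overlap but an adjusted p of 0.69.

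The effector genes differed by more. *Ifit3*, of the tetratricopeptide proteins that hold back viral RNA, was at 58.9, 30.7 and 39.2 FPKM in HFD+AOS replicates 1, 2 and 3 and at 15.3, 12.4 and 12.5 in those of HFD+control-FMT. Its difference of 1.56 ± 0.47 was the largest of the list (adjusted p 0.319, blocked p 0.00186). *Ifit1*, from the same family, was at 18.1, 9.59 and 8.60 against 5.30, 3.34 and 3.94 FPKM (difference 1.28 ± 0.43, blocked p 0.003). In both, the lowest HFD+AOS library stood above the highest HFD+control-FMT library. *Isg15*, a ubiquitin-like modifier, was at 277, 125 and 83.3 against 82.8, 48.6 and 55.1 FPKM (difference 1.22 ± 0.47); its lowest HFD+AOS value barely exceeded the highest value of the other group, and the blocked p was 0.211. *Usp18*, the protease that removes Isg15 and restrains interferon signalling, was at 35.9, 19.8 and 21.6 against 16.1, 10.9 and 12.5 FPKM (difference 0.89 ± 0.35, blocked p 0.00366). *Rsad2*, which encodes the antiviral enzyme viperin, was at 93.1, 64.3 and 38.5 against 37.9, 32.7 and 35.3 FPKM (difference 0.78 ± 0.33, blocked p 0.37). *Rtp4*, a chaperone of G protein-coupled receptors that interferon induces, had the smallest blocked p of the list at 0.000537, with levels of 61.7, 34.2 and 36.5 against 22.9, 15.7 and 17.1 FPKM.

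The 2′-5′ oligoadenylate synthetases, which make the second messenger of RNA decay by RNase L, were higher throughout. All 7 members whose symbols begin with Oas, a family singled out after its values were seen, had higher means. Of these 6 did not overlap and 3 were called in the blocked fit, beside 6.38% and 0.624% of all members. *Oas3* was at 27.7, 14.2 and 11.5 against 8.31, 6.52 and 6.13 FPKM (difference 1.15 ± 0.40, blocked p 0.0361). *Oasl2* was at 40.5, 24.6 and 26.4 against 14.1, 12.6 and 13.8 FPKM (difference 1.08 ± 0.41, blocked p 0.00699). *Oas1a* was at 49.5, 27.2 and 26.3 against 19.5, 17.2 and 16.2 FPKM (difference 0.87 ± 0.40, blocked p 0.0563). Genes of the Oas1 cluster and the *Ifit3* and *Ifit3b* pair are near-identical copies, so their split of reads is uncertain. Another 6 genes known to respond to interferon, picked after their values were seen, were called in the blocked fit: *Ifit3b* (difference 1.55 ± 0.39, blocked p 0.000391), *Ddx60* (0.77 ± 0.20, 0.0109), *Cmpk2* (0.81 ± 0.23, 0.0402), *Eif2ak2* (0.72 ± 0.22, 0.0264), *Dhx58* (0.75 ± 0.31, 0.00645) and *Ifi206* (1.03 ± 0.35, 0.00437).

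**Figure D2:**
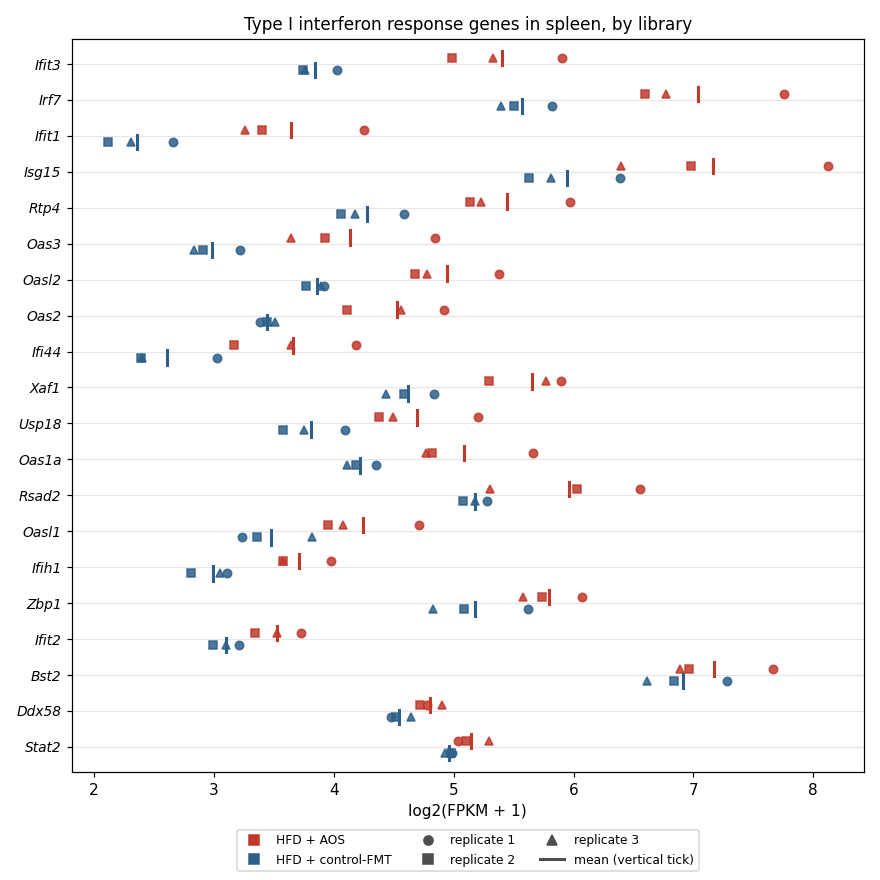
Levels of the 20 type I interferon response genes, log2(FPKM + 1) on the horizontal axis, in the 3 HFD+AOS libraries (red) and the 3 HFD+control-FMT libraries (blue), with marker shape for the replicate number and a vertical tick at each group mean. Red lies wholly right of blue for 18 genes, and HFD+AOS replicate 1 is often the farthest right.

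Seen against the other diet groups, the interferon list had medians on opposite sides of diet alone. These comparisons share libraries with the main one, so each is given only side by side. The list's median difference was 0.50 for HFD+AOS minus HFD and −0.33 for HFD+control-FMT minus HFD. It was −0.44 for HFD with the transplant labelled AOS-FMT minus HFD+control-FMT. *Irf7* was at 53.5, 52.9 and 64.8 FPKM in HFD and at 33.1, 25.9 and 34.1 in HFD with AOS-FMT. *Ifit3* was at 22.2, 15.2 and 22.3 and 8.46, 7.36 and 7.30 in the same groups, so all libraries of HFD with AOS-FMT lay below those of the other 3 diet groups for both genes. Limma called 0 genes for HFD+AOS against HFD (0%, with 1947 or 15% at an unadjusted p under 0.05), 2 for HFD+control-FMT against HFD (0.0154%, with 4.63% at an unadjusted p under 0.05) and 1 for HFD with AOS-FMT against HFD+control-FMT (0.00771%, with 10.5%).

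Other interferon-linked lists had medians nearer 0. The interferon gamma response had 12 of 16 members higher, with a median of 0.16 and 0 without overlap, and class I presentation with the immunoproteasome had 7 of 13 higher, with a median of 0.0021. Without HFD+control-FMT 1 the interferon gamma list had 10 members without overlap and a median of 0.29 (0 to 3 members without any other of the 6), and without HFD+control-FMT 2 a median of 0.068; the class I median lay between −0.12 and 0.11 as 1 library was left out. Plasmacytoid dendritic cell genes, the markers of a main interferon source, were lower for 6 of 8 (median −0.16), 1 of them without overlap, or 5 without HFD+AOS 3 and 3 without HFD+control-FMT 3; without HFD+AOS 2 the median was −0.086.

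NK cell genes were higher in HFD+AOS. All 14 members of the NK and cytotoxic list had higher means, with a median of 0.30. Of these 10 did not overlap (13 without HFD+control-FMT 1, and 10 without any other of the 6), beside 6.38% of all members over the 6 libraries. In the 18-library fit 0 passed. In the blocked fit 5 were called higher, beside 0.624% of all members. In whole tissue, more cells of a type and more RNA per cell cannot be told apart. *Ncr1*, which encodes the activating receptor NKp46 and marks NK cells, was at 12.5, 11.2 and 18.5 FPKM in HFD+AOS replicates 1, 2 and 3 and at 6.13, 5.56 and 7.38 in those of HFD+control-FMT. The difference was 1.01 ± 0.23 (adjusted p 0.274, blocked p 0.003), and no library crossed over.

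The killing machinery was uneven. *Gzma* and *Gzmb* encode granzymes, proteases that set off death in target cells. *Gzma* was at 34.5, 40.96 and 70.3 against 19.2, 20.98 and 25.4 FPKM (difference 1.06 ± 0.35, adjusted p 0.332, blocked p 0.00933) and *Gzmb* at 3.82, 5.92 and 5.06 against 1.98, 2.44 and 2.02 FPKM (difference 0.90 ± 0.28, adjusted p 0.331, blocked p 0.00865). Perforin (*Prf1*) differed by 0.27 ± 0.22 (blocked p 0.317), and *Gzmk*, granzyme K of memory CD8 T cells, overlapped widely at 5.08, 4.49 and 3.86 against 6.86, 3.67 and 2.91 FPKM. The lineage factors *Eomes* (0.13 ± 0.17) and *Tbx21* (0.066 ± 0.16) overlapped too, as did the chemokine *Ccl5* (238, 239 and 219 against 242, 202 and 157 FPKM).

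Lectin-like receptor genes were mostly higher too. Of the 24 members whose symbols begin with Klr, a family singled out after its values were seen, 21 had higher means in HFD+AOS, 17 of them without overlap, against 6.38% of all members; 1 (*Klra17*) was lower without overlap, 7 were called higher in the blocked fit, and the median was 0.54. *Klrk1*, which encodes the activating receptor NKG2D, was at 8.97, 10.1 and 11.6 against 6.12, 6.32 and 7.47 FPKM (difference 0.56 ± 0.24, blocked p 0.027), and *Klre1* was at 6.53, 5.95 and 7.23 against 2.59, 3.62 and 3.36 FPKM (difference 0.86 ± 0.23, blocked p 0.0109). *Klra7*, of the Ly49 receptors that read MHC class I, was at 5.82, 8.19 and 12.3 against 4.08, 3.42 and 3.39 FPKM (difference 1.03 ± 0.21, adjusted p 0.217, blocked p 0.171). *Klrc3*, of the NKG2 group, was at 3.36, 4.31 and 5.22 against 1.45, 1.87 and 2.12 FPKM (difference 0.90 ± 0.26, blocked p 0.00683). *Klrd1*, which encodes their partner CD94, differed far less, by 0.12 ± 0.074 with a blocked p of 0.576. Ly49 and NKG2 genes resemble one another closely and vary between strains, so their separate levels are uncertain. In HFD alone *Ncr1* was at 7.20, 11.9 and 13.9 and *Gzma* at 28.1, 33.7 and 67.8 FPKM, values that overlapped those of HFD+AOS. The list's median was 0.19 for HFD+AOS minus HFD and −0.22 for HFD+control-FMT minus HFD.

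**Figure D3:**
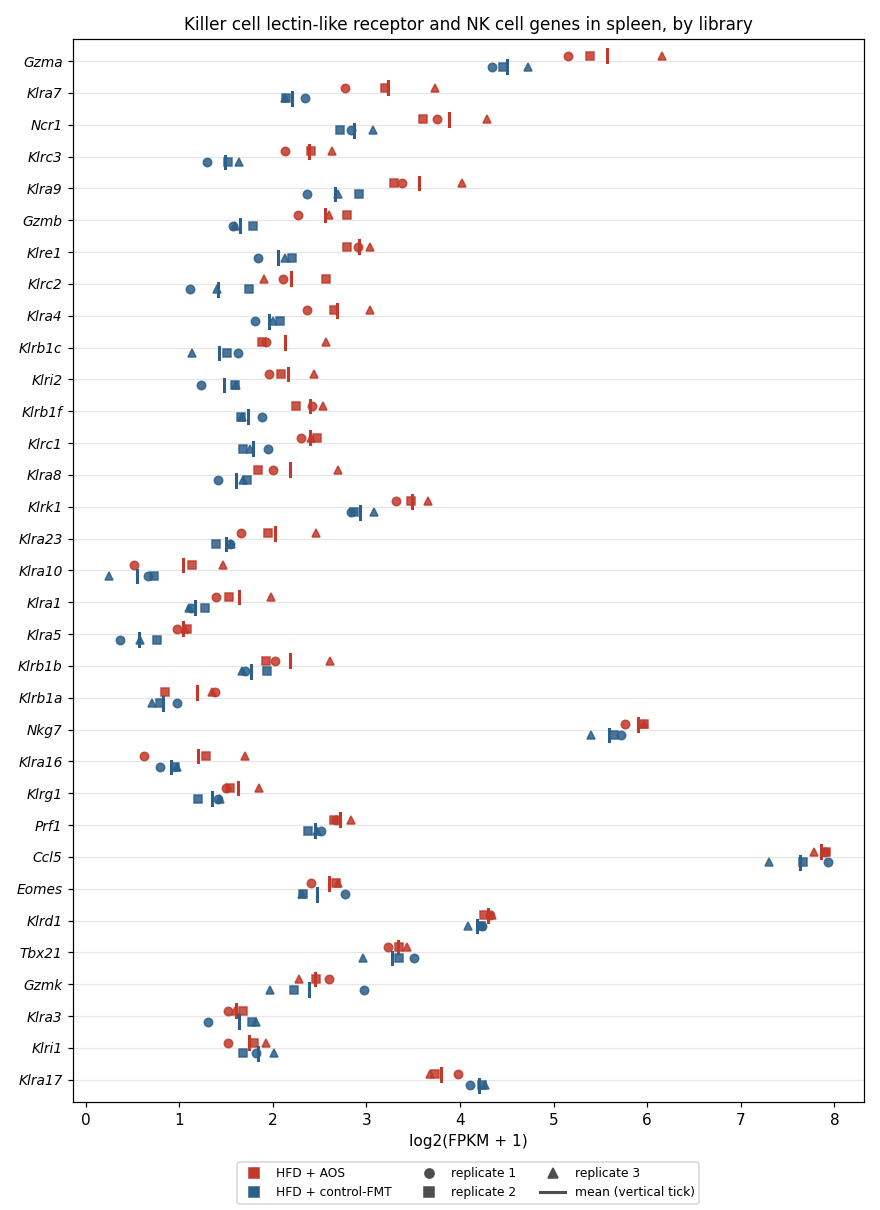
Levels of the 24 killer cell lectin-like receptor members and the other genes of the NK and cytotoxic list, log2(FPKM + 1) on the horizontal axis, with red for HFD+AOS, blue for HFD+control-FMT, marker shape for the replicate number and ticks for group means. Genes are ordered by their difference, from *Gzma* (1.06) at the top to *Klra17* (−0.41) at the bottom.

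Heat shock genes were lower in HFD+AOS. All 14 members of the list had lower means, with a median of −0.80. Of these 6 did not overlap, beside 9.04% of all members lower without overlap. In the blocked fit 8 were called lower, beside 0.514% of all members. Without HFD+AOS 3, or without HFD+control-FMT 1, 12 of the 14 did not overlap, and the median ranged from −0.97 to −0.64 as each of the 18 libraries was left out.

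The heat shock element, GAANNTTC in its shortest form and its own reverse complement, was found before 6 of the 11 members matched to RefSeq promoters (54.5%) and before 2088 of all 27025 genes (7.73%), searched in the same 250 bases. These 60-base windows are shown because they belong to genes whose values follow. Those of *Hspd1* and *Hspe1*, which lie head to head, are 1 stretch read on opposite strands.
*Hspa1b*, chr17:34959309-34959368 (−): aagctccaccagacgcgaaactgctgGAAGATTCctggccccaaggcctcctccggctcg
*Hspb1*, chr5:135887796-135887855 (+): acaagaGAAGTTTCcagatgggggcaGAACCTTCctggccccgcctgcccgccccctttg
*Hspd1*, chr1:55088038-55088097 (−): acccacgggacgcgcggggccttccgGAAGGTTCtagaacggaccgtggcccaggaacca
*Hspe1*, chr1:55088038-55088097 (+): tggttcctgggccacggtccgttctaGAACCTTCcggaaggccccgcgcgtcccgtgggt

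*Hsp90aa1*, the inducible cytosolic Hsp90, was at 276, 234 and 352 FPKM in HFD+AOS replicates 1, 2 and 3 and at 424, 495 and 618 in those of HFD+control-FMT. The difference was −0.83 ± 0.30 (adjusted p 0.352, blocked p 0.00529), and the groups did not overlap. *Hsp90ab1*, its constitutive partner, was at 577, 528 and 782 against 837, 909.7 and 1003 FPKM (difference −0.56 ± 0.24, blocked p 0.0336). *Hspa8*, the constitutive Hsc70 that also strips clathrin from vesicles, was at 816, 772 and 1117 against 1216, 1367 and 1633 FPKM (difference −0.65 ± 0.31, blocked p 0.0109). *Dnaja1*, a J-domain partner of Hsp70, was at 48.9, 44.7 and 95.4 against 107, 154 and 190.1 FPKM (difference −1.29 ± 0.47, blocked p 0.0361). In each of these, HFD+AOS replicate 3 was the highest of its group. In the mitochondrial pair, *Hspd1* was at 96.5, 89.6 and 117 against 126, 124 and 160.4 FPKM (difference −0.43 ± 0.22, blocked p 0.043) and *Hspe1* at 206, 136 and 164 against 199.6, 226 and 216 FPKM (difference −0.36 ± 0.18, blocked p 0.335). For *Hspe1* replicate 1 of HFD+AOS overlapped, and for *Hspd1* none did.

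The strongly inducible members varied more. *Hspa1b*, the stress-induced Hsp70, was at 6.09, 2.48 and 74.4 FPKM in HFD+AOS replicates 1, 2 and 3 and at 28.7, 67.6 and 98.1 in those of HFD+control-FMT: replicates 1 and 2 of HFD+AOS were far below every HFD+control-FMT library and replicate 3 lay among them (difference −2.25 ± 1.15, adjusted p 0.481, blocked p 0.522). *Hspa1a*, a near-identical copy, had the same order of libraries at 2.47, 0.98 and 31.5 against 12.3, 26.9 and 35.3 FPKM, and the division of reads between the copies is uncertain. *Hspb1*, the small chaperone Hsp27, was at 9.58, 10.6 and 25.4 against 19.1, 26.5 and 38.6 FPKM (difference −0.92 ± 0.43, blocked p 0.0161), with the same replicate 3 overlapping.

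Hsp90 cofactors were lower together. Of 13 members that are Hsp90 proteins or their co-chaperones, grouped after their values were seen, 11 were lower, 10 without overlap against 9.04% of all members, and 9 were called in the blocked fit (median −0.56). *Stip1*, which hands clients from Hsp70 to Hsp90, was at 73.03, 69.95 and 91.6 against 109, 131 and 166 FPKM (difference −0.77 ± 0.29, blocked p 0.00502), and *Fkbp4*, an immunophilin of steroid receptor complexes, at 53.9, 45.01 and 59.1 against 75.7, 77.9 and 87.3 FPKM (difference −0.61 ± 0.17, blocked p 0.0124). *Hsp90b1* of the endoplasmic reticulum was higher instead, at 586, 674 and 431 against 617, 386 and 359 FPKM with overlap (difference 0.33 ± 0.25, blocked p 0.455).

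**Figure D4:**
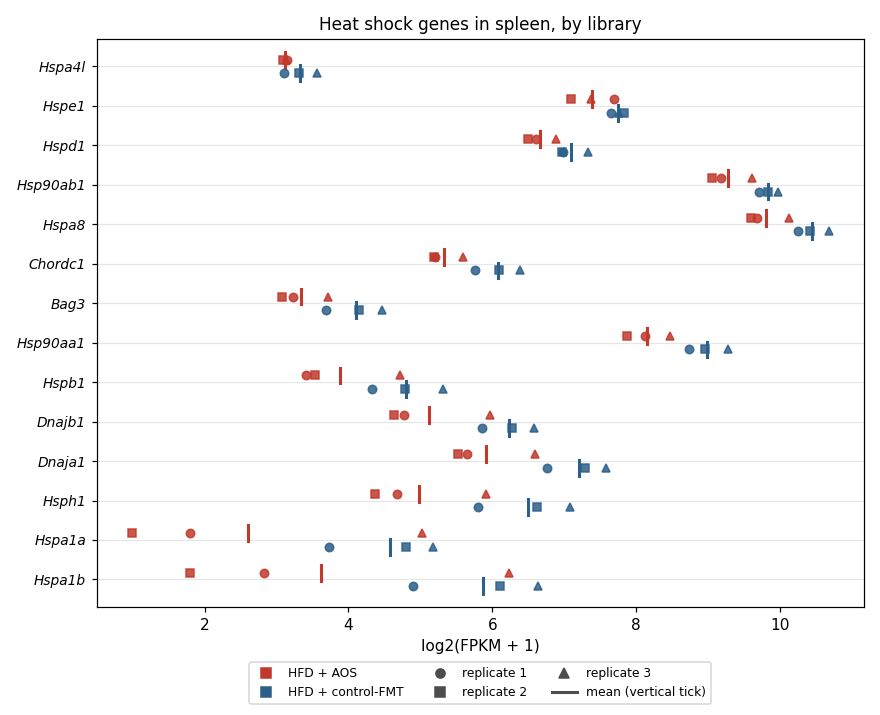
Levels of the 14 heat shock genes, log2(FPKM + 1) on the horizontal axis, with red for HFD+AOS, blue for HFD+control-FMT, marker shape for the replicate number and ticks for group means. Every group mean is lower in HFD+AOS, and for *Hspa1a* and *Hspa1b* replicate 3 of HFD+AOS (31.5 and 74.4 FPKM) falls inside the other group's range.

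Libraries of the diet group spread over the range of both. In HFD alone *Hsp90aa1* was at 287, 495 and 815 and *Hspa1b* at 7.88, 42.8 and 89.8 FPKM, and in HFD with AOS-FMT at 806, 878 and 623 and 124, 170.2 and 56.8. The list's median was −0.81 for HFD+AOS minus HFD, −0.0021 for HFD+control-FMT minus HFD and 0.51 for HFD with AOS-FMT minus HFD+control-FMT.

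T cell genes were lower in HFD+AOS. All 16 members of the list had lower means, with a median of −0.31. Only *Trat1*, *Cd4* and *Cd3g* did not overlap, beside 9.04% of all members lower without overlap. In the blocked fit 2 were called lower, beside 0.514% of all members. *Cd4*, the coreceptor of helper T cells, was at 46.1, 50.1 and 50.3 FPKM in HFD+AOS replicates 1, 2 and 3 and at 70.2, 70.5 and 62.3 in those of HFD+control-FMT (difference −0.46 ± 0.15, adjusted p 0.332, blocked p 0.0422). *Trat1*, an adaptor that stabilises the T cell receptor, was at 5.94, 7.59 and 8.44 against 11.9, 12.8 and 12.4 FPKM (difference −0.69 ± 0.21, blocked p 0.0129). *Cd8a* of cytotoxic T cells overlapped, at 18.7, 26.2 and 20.9 against 23.8, 25.4 and 22.03 FPKM (difference −0.12 ± 0.20). Replicate 3 of HFD+control-FMT had the lowest mean of its group over the list and replicate 2 of HFD+AOS the highest of its own: without either of them, 13 of 16 did not overlap, and without the first the median was −0.47.

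Naive T cell and recirculation genes were lower for 9 of 10, with a median of −0.26 and 0 called in either fit. Of these 6 did not overlap, beside 9.04% of all members. *Il7r*, the receptor for the survival cytokine interleukin 7, was at 18.1, 22.7 and 18.6 against 24.3, 28.5 and 23.6 FPKM (difference −0.35 ± 0.15), and *Klf2*, a factor that keeps T cells quiescent and mobile, at 102, 114 and 124 against 133, 161 and 145 FPKM (difference −0.37 ± 0.17). *S1pr1*, the exit receptor that *Klf2* drives, was the exception, higher by 0.19 ± 0.19 with overlap. Regulatory T cell genes were lower for 9 of 10 (median −0.19) with 0 free of overlap. Without HFD+control-FMT 3, 5 did not overlap (median −0.37), 2 did not without HFD+AOS 1 or HFD+AOS 2, and without HFD+control-FMT 1 the median was 0.0049.

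B cell genes were lower with a smaller median, while plasma cell genes were higher. Of 14 B cell members 13 were lower (median −0.16), 2 without overlap beside 9.04% of all members. Without HFD+AOS 3, 9 of 14 did not overlap (median −0.30), while without HFD+AOS 1 the median was −0.055. *Cd79a*, a signalling chain of the B cell receptor, was at 690.3, 676 and 869 against 878, 1025 and 957 FPKM (difference −0.36 ± 0.16, blocked p 0.151), and *Fcer2a*, the IgE receptor CD23 of follicular B cells, at 84.3, 108 and 117 against 124, 153 and 147 FPKM (difference −0.46 ± 0.19, blocked p 0.0405). Germinal centre genes were lower for 9 of 9 (median −0.39), 3 without overlap, or 9 without HFD+control-FMT 3. Their median was −0.60 without that library and −0.20 without HFD+control-FMT 1. *Rgs13*, a brake on chemokine receptor signalling that marks germinal centre B cells, was at 8.47, 7.30 and 4.29 FPKM in HFD+AOS replicates 1, 2 and 3 and at 22.9, 18.6 and 8.73 in those of HFD+control-FMT (difference −1.15 ± 0.33, adjusted p 0.298, blocked p 0.00186). *Bcl6*, their master repressor, was at 16.9, 18.7 and 17.4 against 23.2, 26.98 and 20.3 FPKM (difference −0.39 ± 0.10, blocked p 0.0918).

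All 12 plasma cell members had higher means in HFD+AOS, with a median of 0.58. Over the 6 libraries only 2 did not overlap, beside 6.38% of all members higher without overlap. Without HFD+control-FMT 1 the count was 11, and without HFD+AOS 3 it was 7. The blocked fit called 1 higher, beside 0.624% of all members. The list's median was 0.38 without HFD+control-FMT 3 and 0.87 without HFD+control-FMT 1. *Prdm1*, which encodes Blimp-1, the factor of plasma cell fate, was at 5.40, 6.17 and 5.03 FPKM in HFD+AOS replicates 1, 2 and 3 and at 4.26, 2.72 and 2.22 in those of HFD+control-FMT (difference 0.71 ± 0.19, adjusted p 0.295, blocked p 0.0628). *Tnfrsf17*, the survival receptor BCMA, was at 6.74, 8.33 and 3.77 against 3.44, 2.75 and 2.03 FPKM (difference 0.92 ± 0.28, blocked p 0.016), the only call of the list. *Jchain*, which joins secreted IgM and IgA, was at 1196, 1728 and 1009 against 1321, 605 and 519 FPKM, so HFD+control-FMT replicate 1 sat inside the HFD+AOS range.

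**Figure D5:**
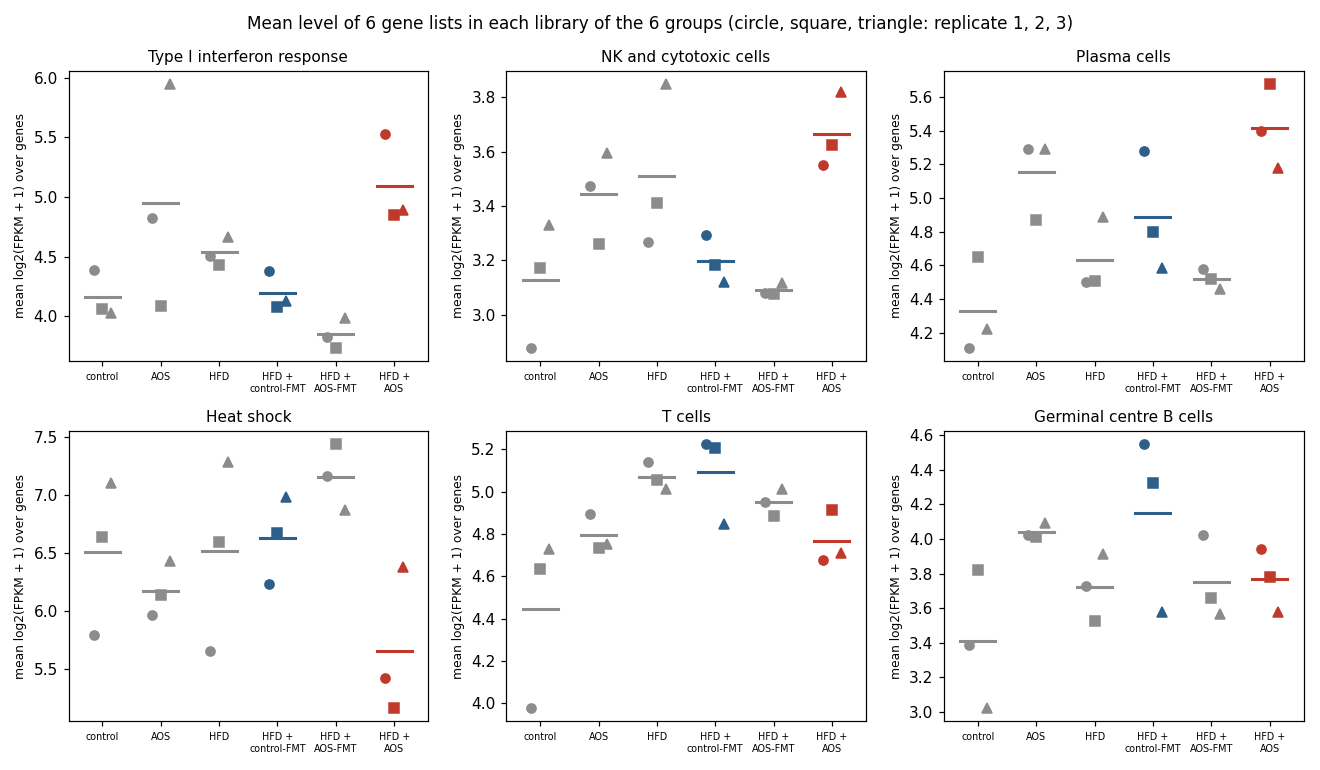
Mean log2(FPKM + 1) of 6 gene lists (vertical axes) in each of the 18 libraries, by group, with HFD+AOS in red, HFD+control-FMT in blue, the other groups in grey and horizontal bars at group means. The 3 HFD+AOS libraries lie above every HFD+control-FMT library for the interferon and NK lists (from 4.85 and 3.55 against at most 4.38 and 3.29), and the groups overlap for plasma cells, heat shock, T cells and germinal centre B cells.

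Antigen presentation and white pulp genes were mostly lower. Of 11 MHC class II members 10 were lower (median −0.20), and 0 were called in either fit. Over the 6 libraries 5 did not overlap, beside 9.04% of all members (8 without HFD+AOS 3). *H2-Ab1*, a chain of the I-A molecule, was at 1197, 1082 and 1217 against 1506, 1589.9 and 1489.7 FPKM (difference −0.39 ± 0.11, adjusted p 0.295, blocked p 0.0923), and *Cd74*, the invariant chain, at 3638, 3671 and 4376 against 4651, 4762 and 4961 FPKM (difference −0.30 ± 0.13). *H2-Eb1* stood apart, at 314, 312 and 393 against 376, 72.03 and 329.9 FPKM, with 1 HFD+control-FMT library far below the rest, and it varied between HFD libraries too, at 164, 43.2 and 19.8. Among white pulp chemokines and stromal genes 8 of 10 were lower, 4 without overlap (median −0.25, and −0.15 without HFD+AOS 1). The only member called in the blocked fit was higher instead: *Ackr3*, with overlap (difference 0.58, blocked p 0.0483). *Ccl21a*, which draws T cells into their zone, was at 721, 1186 and 1022 against 2096, 1446 and 1212 FPKM (difference −0.69 ± 0.24, adjusted p 0.338, blocked p 0.523), and *Tnfsf13b*, the B cell survival factor BAFF, at 6.79, 7.31 and 8.07 against 11.8, 9.50 and 8.95 FPKM (difference −0.39 ± 0.12, blocked p 0.177). *Cxcl13*, which draws B cells into follicles, overlapped at 194, 215 and 231 against 185, 261 and 281 FPKM.

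Connective tissue genes were mostly lower too. Extracellular matrix genes were lower for 11 of 16, 7 without overlap (median −0.23, and −0.090 without HFD+AOS 1), with 0 called. *Dcn*, the collagen-binding proteoglycan decorin, was at 39.5, 64.5 and 50.5 against 99.6, 101 and 75.9 FPKM (difference −0.84 ± 0.26, adjusted p 0.327, blocked p 0.092). Small leucine-rich proteoglycans, fibulins and *Dpt* (dermatopontin, of neither family) were grouped after their values were seen. Of these 10 of 11 were lower, 8 without overlap beside 9.04% of all members, with a median of −0.47 (−0.28 without HFD+AOS 1). The 3 called in the blocked fit were *Ogn*, *Dpt* and *Fbln1*. *Ogn*, osteoglycin, was at 4.85, 6.84 and 7.44 against 10.1, 11.9 and 11.8 FPKM (difference −0.75 ± 0.20, blocked p 0.00865). Markers of fat were lower too: all 8 adipocyte members had lower means (median −0.73) and 0 were free of overlap, with *Adipoq*, adiponectin, at 0.77, 14.4 and 5.27 against 3.79, 14.7 and 16.4 FPKM. That median rests on single libraries: it was −0.0076 without HFD+AOS 1, −0.36 without HFD+control-FMT 3, −1.31 without HFD+control-FMT 1 and −1.41 without HFD+AOS 2, and 0.25 with array weights. The 10 listed adipocyte genes summed to 20.7, 284 and 118 FPKM against 74.8, 267 and 311, and the lowest library, HFD+AOS 1, was also the lowest for *Dcn*; the part of fat RNA in the matrix genes was not tested.

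Macrophage genes of the red pulp were higher. Of 14 members 13 were higher, with a median of 0.24. Over the 6 libraries 3 did not overlap, beside 6.38% of all members (9 without HFD+control-FMT 3, 6 without HFD+AOS 1). In the blocked fit 2 were called higher, beside 0.624% of all members. *Spic*, the haem-responsive factor that makes iron-recycling macrophages, was at 66.3, 64.2 and 75.2 FPKM in HFD+AOS replicates 1, 2 and 3 and at 41.4, 43.95 and 40.6 in those of HFD+control-FMT (difference 0.69 ± 0.15, adjusted p 0.218, blocked p 0.00699). *Slc40a1*, the iron exporter ferroportin, was at 69.9, 75.9 and 99.4 against 49.8, 48.1 and 70.8 FPKM (difference 0.54 ± 0.22, blocked p 0.0165), with overlap. *Hmox1*, which breaks down haem, overlapped too (difference 0.13 ± 0.23). In the marginal zone *Cd209b*, the lectin SIGN-R1 that takes up blood-borne polysaccharide, was at 6.44, 5 and 11.3 against 2.36, 2.48 and 4.64 FPKM (difference 1.02 ± 0.46, blocked p 0.00474), while *Cd209a*, the related lectin of dendritic cells, was lower without overlap at 5.60, 8.21 and 9.02 against 10.7, 10.4 and 11.8 FPKM (difference −0.50 ± 0.21, blocked p 0.0932). *Cd5l*, a macrophage-secreted scavenger protein picked after its values were seen, was at 34.5, 25.2 and 31.2 against 16.6, 15 and 18.9 FPKM (difference 0.81 ± 0.26, blocked p 0.00465).

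Genes of red cell precursors and dividing cells were higher on average with wide overlap. All 19 late erythroid members and all 25 cell cycle members had higher means (medians 0.38 and 0.31), and 0 of either list were free of overlap. Without HFD+AOS 3, 17 of 19 late erythroid and 24 of 25 cell cycle members did not overlap (medians 0.64 and 0.49), and without HFD+AOS 1 the medians were 0.22 and 0.16. Without HFD+control-FMT 3, 9 late erythroid and 2 cell cycle members did not overlap, and without HFD+control-FMT 1, 0 and 6. Such counts can only stay or rise with a library left out, and no share over all members is set beside them. *Slc4a1*, the band 3 anion exchanger of red cells, was at 411, 348 and 206 against 183, 186 and 264 FPKM, with HFD+AOS replicate 3 inside the other group. *Mki67*, the proliferation marker, was at 145, 130.0 and 88.7 against 87.2, 81.1 and 94.9 FPKM, again with replicate 3 inside. The summed haemoglobin share of FPKM was 20.2% ± 7.72 in HFD+AOS and 17.6% ± 1.86 in HFD+control-FMT (SD, n = 3; exact permutation p = 0.7, two-sided, where 0.1 is the smallest p that 3 against 3 allows). Without HFD+AOS 1 that difference turned from 2.61 to −1.33 percentage points. Neutrophil granule genes were lower for 12 of 12 (median −0.53), 0 without overlap; without HFD+AOS 1 all 12 did not overlap (median −0.94), and without HFD+AOS 3 the median was −0.085.

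Clock output genes were slightly lower. Of 11 members that peak in phase with *Dbp* 10 were lower (median −0.15, −0.26 without HFD+AOS 3 and −0.055 without HFD+AOS 1), and 0 were called. Over the 6 libraries 4 did not overlap (*Ciart*, *Per2*, *Hlf*, *Dbp*), beside 9.04% of all members. Without HFD+AOS 3 the count was 7. *Dbp*, an albumin promoter-binding factor of the daily clock, was at 12.5, 15.9 and 16.2 against 17.96, 21.4 and 16.3 FPKM (difference −0.30 ± 0.17), against 7.36, 7.14 and 6.94 in HFD, and is 1 of the 2 genes called for HFD+control-FMT against HFD. The other is *Tmsb15b1*, a thymosin beta gene, at 0.52, 1.22 and 0.77 against 2.27, 2.53 and 2.03 FPKM, against 0.25, 0.49 and 0 in HFD; its difference between HFD+AOS and HFD+control-FMT was −0.85 ± 0.20 (adjusted p 0.274, blocked p 0.0197). The hour of sampling is not given in the sources used here.

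The smallest p-values belonged to single genes of varied function. *Rflnb*, an actin-binding refilin, was at 11.4, 13.8 and 14.3 FPKM in HFD+AOS replicates 1, 2 and 3 and at 18.6, 20.4 and 19.6 in those of HFD+control-FMT. Its difference of −0.54 ± 0.091 had an adjusted p of 0.134 and a blocked p of 0.0227, and HFD libraries (20.1, 19.9 and 20.03) lay with HFD+control-FMT. *Fxyd5*, a regulator of the sodium pump, was at 119.6, 121 and 125 against 169.6, 179 and 151 FPKM (difference −0.45 ± 0.081, blocked p 0.0563). *Tnfsf9*, the costimulatory ligand 4-1BBL, had the largest difference among the genes with the smallest p-values, at 1.99, 2.45 and 3.96 FPKM in HFD+AOS replicates 1, 2 and 3 and at 9.82, 12.5 and 10.4 in those of HFD+control-FMT. That is a difference of −1.67 ± 0.35 (adjusted p 0.217, blocked p 0.00437), and HFD libraries (3.40, 6.37 and 7.98) overlapped HFD+AOS and lay below HFD+control-FMT. *Psd*, an exchange factor for Arf6, was at 3.68, 3.36 and 4.05 against 6.89, 5.89 and 7.31 FPKM (difference −0.71 ± 0.15, blocked p 0.0139).

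On the higher side, *Hcar2*, the receptor for niacin, beta-hydroxybutyrate and the bacterial product butyrate, was at 5.95, 4.92 and 5.44 FPKM in HFD+AOS replicates 1, 2 and 3 and at 2.68, 2.26 and 2.93 in those of HFD+control-FMT. Its difference of 0.83 ± 0.15 had an adjusted p of 0.134 and a blocked p of 0.0092, and HFD (3.39, 3.17 and 3.90) lay between the groups. *Apol11b*, of the apolipoprotein L family, was at 23.8, 33.2 and 18.3 against 8.62, 8.58 and 12.9 FPKM (difference 1.23 ± 0.21, adjusted p 0.134), but the blocked p was 0.312, and HFD with AOS-FMT stood as high (25.1, 28.2 and 20.4). That family went both ways: of 9 members 4 were higher and 5 lower (median −0.0097), with 2 free of overlap in each direction. *Hs3st2*, a heparan sulfate sulfotransferase, was at 2.89, 3.28 and 3.74 against 1.66, 1.51 and 1.58 FPKM (difference 0.73 ± 0.14, blocked p 0.0264). *Acss1*, which turns acetate into acetyl-CoA in mitochondria, was at 28.9, 29.7 and 30.8 against 25.1, 23.8 and 26.3 FPKM (difference 0.24 ± 0.06, adjusted p 0.295, blocked p 0.22). *Slc31a1*, the copper importer, was at 14.3, 15.5 and 13.4 against 11.6, 9.72 and 11.5 FPKM (difference 0.37 ± 0.085, blocked p 0.146).

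The remaining genes named by the same rule were *Med7*, *Aplnr*, *Zfp27*, *Ntpcr*, *Cpeb3*, *Paox* and *Anxa9* on the higher side and *Cmc1*, *Tspan10*, *Trim8*, *Tmub1*, *Tuft1*, *Sec11a*, *S100a10*, *Gstk1* and *Terf2ip* on the lower side. Their differences ran from 0.28 (*Med7*, of the Mediator complex) to 0.63 (*Aplnr*, the apelin receptor) and from −0.89 (*Tspan10*, a tetraspanin) to −0.27 (*Sec11a*, of the signal peptidase). Groups did not overlap for any of them, as the rule required, and the adjusted p lay between 0.134 (*Cmc1*) and 0.295 (*Anxa9*). Only *Tmub1* was called in the blocked fit (blocked p 0.0408).

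Pancreas genes, which are not expected of spleen, had the largest list median. All 15 exocrine pancreas members had higher means in HFD+AOS (median 2.07), with 0 free of overlap and standard errors near the size of the differences; *Ctrb1*, chymotrypsinogen B, was at 41.5, 2928 and 1394 against 10.2, 1212 and 108 FPKM (difference 2.29 ± 2.38, adjusted p 0.751). The median was 0.40 without HFD+control-FMT 1, 0.83 without HFD+AOS 2, 3.81 without HFD+control-FMT 2 and 3.99 without HFD+AOS 1, where 8 of 15 did not overlap; *Ctrb1* ran from 0.62 to 4.15. These genes made up 0.0328%, 2.95% and 1.42% of summed FPKM in HFD+AOS and 0.0115%, 1.36% and 0.124% in HFD+control-FMT (exact permutation p = 0.4). Within HFD+AOS, replicate 2 was highest for pancreas genes, replicate 1 for the interferon list and replicate 3 for the NK and heat shock lists. An order of so few libraries cannot tell what these genes share. Liver genes were higher for 9 of 10 (median 1.08), 1 without overlap; 7 did not overlap without HFD+AOS 3 (median 1.71) and 5 without HFD+control-FMT 3, and the median was 0.60 without HFD+AOS 1. What part such RNA has in other differences was not tested.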

How the data were processed

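Spleen RNA was sequenced in 18 libraries, 3 in each of 6 groups, and groups and replicate numbers were taken from the labels. The authors deposited 1 table of 19326 gene rows in FPKM; the processing notes of the submitters name Bowtie 0.12.2 and the build mm10. The unit was read from the values. Column totals varied by 7.55% (coefficient of variation) and sums of value times transcript length by 0.785%. Lengths were those of the longest GENCODE transcript of each symbol, for 97.1% of rows. Counts are not in the table, so depth and counting error are unknown. No 2 libraries were identical (r = 0.966 to 0.986 among the 6), 401 rows were 0 throughout, 6 symbols were duplicated and 26 had become dates.

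From these values log2(FPKM + 1) was tested with limma 3.58.1 in R 4.3.3 (trend and robust options, 12 residual degrees of freedom) in 1 fit to all libraries, for genes with a group mean of at least 1 FPKM in any group. Benjamini-Hochberg adjustment ran over all genes tested, with a threshold of 0.05. A fold change on this scale understates the change of low genes. Replicate numbers were used as a block in a separate fit because every same-numbered pair deviated together by r above 0.1. Single values were compared with exact permutation tests.

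Members and gene lists were chosen with earlier results of these data known. Genes were named as the 15 largest differences in each direction past the test, or, as none passed, the 15 smallest p-values per direction among genes without overlap and with a mean of at least 2 FPKM, plus from each list the members with the smallest p and the highest level; all members of cell type lists could be named. Other members of the interferon, heat shock, clock, class II, matrix and macrophage lists, and all genes of families, were named after their values were seen. Some results that the rule names are not reported here. Promoter letters came from RefSeq on GRCm38.p6.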

Additional observations from a re-analysis of the deposited data

How the results depend on the processing

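The count of 0 genes called between HFD+AOS and HFD+control-FMT held with a pseudocount of 0.1 or 0.5, no filter, a filter at 5 FPKM, median ratio or quantile scaling, haemoglobin genes removed, and no trend or robust option. It was 1 (1 higher) with the 6 libraries alone and 16 (7 higher, 9 lower) with the 12 diet libraries. The replicate block gave 144 (79 higher, 65 lower) with 6 libraries and, added after seeing the data, 28 (15 higher, 13 lower) with 12; all 16 and all 28 were among the 144. Array weights gave 4254 (1915 higher, 2339 lower), but their estimation did not converge; weights estimated gene by gene, added after seeing the data, gave 2186 (974 higher, 1212 lower). Leaving out 1 library gave 0 to 1, higher 0 to 1 and lower 0 to 1: *Hist1h2ah* without HFD+AOS 3 and *Cacna1f* without HFD+control-FMT 3. The cause was not tested.

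For HFD+AOS against HFD the count of 0 became 1 with the 5 FPKM filter, 2 with median ratio scaling, 2 with quantile scaling, 1 without haemoglobin, 12 with the 12 diet libraries, 6020 with array weights, 3910 gene by gene, 33 with the replicate block in 18 libraries and 48 in 12, and 0 to 22 leaving out 1 library (22 without control 1). For HFD+control-FMT against HFD the 2 became 1 with a pseudocount of 0.1, 1 with the 5 FPKM filter, 280 with array weights, 8 gene by gene, 4 with the block in 12 libraries and 0 to 3 leaving out 1. For HFD with AOS-FMT against HFD+control-FMT the 1 became 650 with array weights, 430 gene by gene, 2 with the block in 18 libraries and 1 to 7 leaving out 1.

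Of 110 named genes followed through all 33 settings 104 kept their sign, and 36 of 58 lists kept the sign of their median. Among the lists that turned were those of regulatory T cells, class I presentation and adipocytes, with the values given above. The sign of *Adipoq* turned with array weights (0.21) and that of *Cd8a* with array weights (0.080) and gene by gene (0.032). Leaving out 1 library, *Gzmk* ran from −0.15 (without HFD+control-FMT 3) to 0.35 (without HFD+control-FMT 1), *Hmox1* from −0.063 (without HFD+AOS 3) to 0.31 (without HFD+AOS 1), *H2-Eb1* from −0.060 (without HFD+control-FMT 2) to 1.12 (without HFD+control-FMT 1) and *Tbx21* from −0.088 (without HFD+control-FMT 3) to 0.18 (without HFD+control-FMT 1). Low genes are limited by the unknown depth.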
